A study of Drosophila melanogaster with 2 samples.

Results

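Of the 3846 sites in the conservative set of HLH3B ChIP-seq peaks, 920 had their summit upstream of a protein-coding gene that does not share its promoter with a divergent neighbour. A site was kept when its nearest annotated transcript start belonged to a protein-coding gene and the summit, the position of highest signal, lay 1 to 1000 bp upstream of that start. It was dropped when it also lay between a minus-strand coding start within 1000 bp on its left and a plus-strand coding start within 1000 bp on its right. The choice used position and annotation only, not signal. The remaining sites comprised 622 at divergent coding promoters, 338 at or just downstream of coding starts, 183 at starts of non-coding genes and 1783 distal sites over 1000 bp from a start.

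All samples came from whole Drosophila melanogaster embryos of strain HLH3B-GFP, aged 8 to 24 hours, which carry HLH3B fused to eGFP. Chromatin was sheared by sonication to 200 to 800 bp and immunoprecipitated through the GFP tag. There was 1 group of 2 biological replicates, with no second condition, and both replicates carry the tagged protein. A whole embryo mixes all tissues, so a site may be bound in few or many cells, and the files hold no expression data against which the tissue could be checked. What drives expression of the fusion protein is not stated in the labels, and the control experiment was not analysed here.

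HLH3B belongs to the Tal1-like proteins with a basic helix-loop-helix (bHLH) fold. In vertebrates, Tal1 pairs with an E protein on E-boxes and acts with GATA and LIM-domain proteins in blood and vessel development. E-boxes are 6-letter DNA words with CA at one end and TG at the other. Fly core promoters fall into classes: some carry a TATA box or an initiator, while promoters of housekeeping genes tend to carry the DNA replication-related element (DRE), bound by DREF, or motifs 1, 6 and 7. Ribosomal protein genes start at a pyrimidine-rich initiator of their own.

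The letters under the strongest upstream sites were rich in A and T. The 61-bp windows centred on the summit are shown for 9 of the 10 strongest sites on the arms shown. The window at MFS10 is left out because it overlaps an untranslated region. All are read from the Release 6 genome sequence (dm6) on the strand of the gene, so that the gene lies to the right. Capitals mark E-boxes, GATA words, TATAAA and CGATA, the DRE and motifs 1, 6 and 7 on either strand, while the initiator word TCAGT and other motifs searched are left in lower case.
CG14100 (chr3L:19590584-19590644, minus strand): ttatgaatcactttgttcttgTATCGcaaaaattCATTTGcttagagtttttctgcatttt
ph-p (chrX:2137324-2137384, minus strand): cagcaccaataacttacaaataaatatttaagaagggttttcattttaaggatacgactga
CG18549 (chr3R:12449137-12449197, plus strand): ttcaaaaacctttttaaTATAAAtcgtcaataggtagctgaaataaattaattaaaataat
gish (chr3R:16280702-16280762, plus strand): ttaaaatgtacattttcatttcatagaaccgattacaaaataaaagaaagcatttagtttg
CG1635 (chr3R:31588502-31588562, plus strand): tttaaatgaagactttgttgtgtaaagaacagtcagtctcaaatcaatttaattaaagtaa
osp (chr2L:14689506-14689566, minus strand): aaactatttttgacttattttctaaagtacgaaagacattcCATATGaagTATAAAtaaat
Rtnl1 (chr2L:4997622-4997682, minus strand): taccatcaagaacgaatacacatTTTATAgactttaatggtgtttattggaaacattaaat
Gapdh2 (chrX:15867950-15868010, plus strand): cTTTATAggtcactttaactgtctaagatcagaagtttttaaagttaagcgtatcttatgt
CG13921 (chr3L:1746746-1746806, plus strand): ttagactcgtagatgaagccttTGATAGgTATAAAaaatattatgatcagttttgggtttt
These windows held 43 to 50 A or T letters out of 61. TATAAA or its reverse complement stood in 5 of the 9, an E-box in 2, a GATA word in 1 and CGATA in 1. The preferred E-box of Tal1-type pairs, CAGATG, stood in 0 of the 9.

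The strongest upstream site of all lay at CG14100. The 240 bases before its start are printed once in full, with the 101-bp window that was searched for motifs in capitals.
CG14100 (chr3L:19590525-19590764, minus strand): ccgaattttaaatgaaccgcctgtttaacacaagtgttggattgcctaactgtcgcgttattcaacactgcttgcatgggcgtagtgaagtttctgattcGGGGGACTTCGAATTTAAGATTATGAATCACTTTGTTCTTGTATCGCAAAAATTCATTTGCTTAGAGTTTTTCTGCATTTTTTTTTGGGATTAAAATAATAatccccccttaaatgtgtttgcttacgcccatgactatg
These 240 bases hold 37.5% G+C and matches to the E-box pattern, to CGATA and to TGTTTA.

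Further windows of 41 bp each show 1 motif, in capitals, centred in the window. For each motif the example is the strongest member that carries it near its summit, outside untranslated regions and among the arms shown.
papi, E-box (chr2L:2221796-2221836, plus strand): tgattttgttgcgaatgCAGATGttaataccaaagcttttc
fok, E-box (chr2L:20085203-20085243, minus strand): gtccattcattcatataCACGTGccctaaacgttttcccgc
eEF1gamma, DRE (chr3R:29220115-29220155, plus strand): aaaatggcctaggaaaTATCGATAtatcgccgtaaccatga
Dfd, motif 1 (chr3R:6791515-6791555, plus strand): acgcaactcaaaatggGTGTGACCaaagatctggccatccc
papi, motif 6 (chr2L:2221745-2221785, plus strand): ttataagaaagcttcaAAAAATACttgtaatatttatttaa
Tsp5D, motif 7 (chrX:6074991-6075031, minus strand): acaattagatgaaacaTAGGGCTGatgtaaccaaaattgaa
The 2 examples at papi come from the same site, which had a signal of 745 and lay 290 bp upstream of papi.

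HLH3B sites upstream of these promoters were most dense between 100 and 200 bp from the start. The median distance of the 920 summits was 230 bp (95% interval 212 to 253), the quartiles were 138 and 428 bp, and the range was 2 to 995 bp. Within 100 bp lay 142 sites (15.4%), from 101 to 300 bp 418 sites (45.4%) and from 301 to 1000 bp 360 sites (39.1%). The sites were also counted per Mb of sequence in which a summit would be a member. Members numbered 231 per Mb (exact Poisson 95% interval 204 to 260) at 101 to 200 bp, 77.4 (57.5 to 102) within 50 bp and 40.6 (34.7 to 47.1) at 501 to 1000 bp. Over the whole 9.81 Mb of such sequence the density was 93.8 sites per Mb (87.8 to 100.03), against 23.6 (22.7 to 24.5) for all other sites in the rest of the 6 arms. These intervals, and all others here, cover counting error only. Distance entered the choice of members, so the densities are given as a description.

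**Figure D1:**
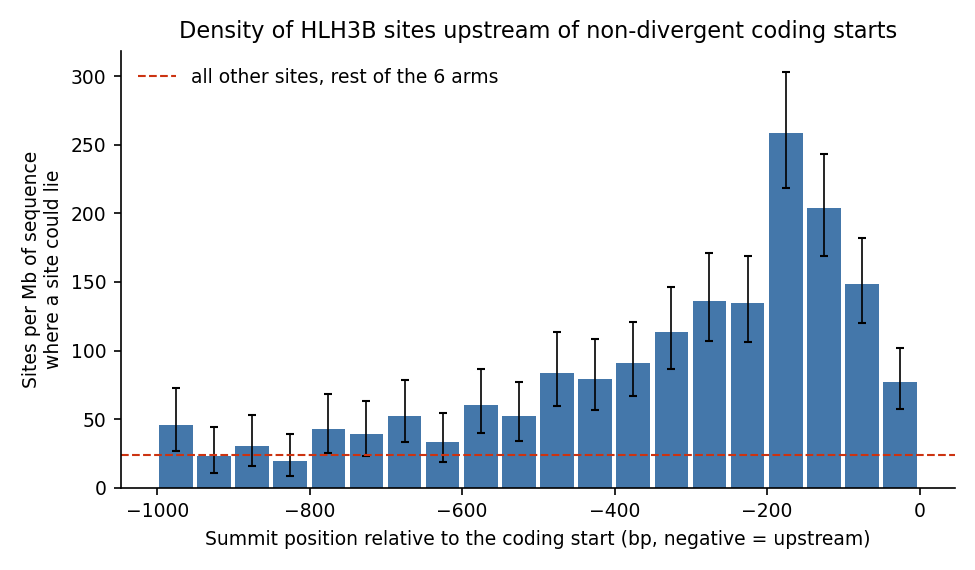
Density of upstream sites against the position of the summit relative to the coding start (bp, negative is upstream), in sites per Mb of sequence where a site could lie, in 50-bp bins with exact Poisson 95% intervals. The bin at 151 to 200 bp reaches 258 sites per Mb, and the bin nearest the start holds 77.4.

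The limits of 1000 bp and of the start itself cut through a continuous run of sites. Just inside the far limit lay sites at dia (995 bp, signal 113) and Tak1 (993 bp, 95.1), and just outside it sites at Cad89D (1001 bp, 115) and CG33080 (1003 bp, 106). Just inside the near limit lay sites at RpL30 (2 bp, 201) and Ccm3 (2 bp, 77.0), and just outside it one at CG4497 (0 bp, 420), whose summit falls on the start. Camta was kept with its divergent neighbour at 1004 bp (signal 121), while RpS7 was dropped with its neighbour at 999 bp (154).

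The members fell on 806 genes, most of which carried a single site. Of these genes 710 had 1 site, 83 had 2, 9 had 3 and 3 had 4, and Moe, which encodes moesin, a linker of actin to the membrane, had 5. The 5 sites at Moe had signals from 76.4 to 237. Ptpmeg2, a protein tyrosine phosphatase, had 4 sites, at signals of 131 to 640. Rtnl1, which encodes a reticulon of the endoplasmic reticulum, also had 4, at 117 to 1123. In 45 genes more than 1 start carried a member, so sites of the same gene need not share a promoter. On the arms the members were 203 of 785 sites on X (25.9%), 164 of 829 on 3L (19.8%), 208 of 853 on 3R, 169 of 688 on 2L, 174 of 688 on 2R and 2 of 3 on chromosome 4.

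The word upstream covers several settings in this compact genome. The summit was intergenic at 484 members (52.6%) and intronic at 367 (39.9%), and 27 lay in 3′ UTRs, 26 in 5′ UTRs, 13 in non-coding exons and 3 in coding exons. An intronic site can be upstream because many genes have further starts inside their first introns. The start was the outermost of its gene for 580 members (63.0%) and an inner one for 340. At the inner starts the median signal was 169 (155 to 183) and the median distance 291.5 bp, against 145 (134 to 156) and 196.5 bp at outermost starts. The nearest coding neighbour on the upstream side ran on the same strand for 497 members and on the opposite strand for 309, where the gap between the starts had a median of 5060 bp. The start lay inside another coding gene for 114. A start of a non-coding gene lay within 1000 bp of 65 members, so some promoters counted as non-divergent for coding genes have a non-coding start nearby.

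Signal is the authors' value for each peak, on an unstated scale, and is compared only within a list. The files hold no read counts, so the depth is unknown. The median signal was 154 (145 to 164) at upstream sites, against 159 (148 to 173) at divergent promoters, 132 (120 to 146) at or downstream of starts and 135 (131 to 139) over all other sites. The strongest 10% of the whole set held 138 of the members (15%), against 8.44% of all other sites. That share was 13.3% at divergent promoters, 14.8% at non-coding starts, 10.4% at or downstream of starts and 5.72% at distal sites. The median signal was 143 (128 to 162) at non-coding starts and 128 (123 to 131) at distal sites. The members' interval of the median overlapped those of divergent promoters, non-coding starts and sites at or downstream of starts. It lay above those of distal sites and of all other sites together. At the low end, 24 members had a signal under 20, and all 24 had another site of the set within 1000 bp. Over all members 181 (19.7%) had one. Of the 24, 6 had a summit of either replicate's ranked list within 100 bp. Each of the 24 is counted as a site of its own in the counts per gene.

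The 20 strongest members lay at genes with varied roles. CG14100, of no role stated in the files, had a signal of 2278, with 965 in replicate 1 and 1325 in replicate 2, at 90 bp. At ph-p, a subunit of the Polycomb repressive complex PRC1, the signal was 1959, with 946 in replicate 1 and 1042 in replicate 2, at 499 bp. CG18549 had 1798, with 1042 in replicate 1 and 757 in replicate 2, at 129 bp. Replicate 2 was the higher at CG14100 and ph-p, and replicate 1 at CG18549.

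Signalling and transcription genes were among them. The site at gish, a casein kinase I gamma, had a signal of 1294, with 693 in replicate 1 and 606 in replicate 2, at 157 bp. At Btk, a cytoplasmic tyrosine kinase, it was 1043, with 628 in replicate 1 and 415 in replicate 2, at 152 bp. At Sox14, an HMG-box transcription factor, it was 1029, with 457 in replicate 1 and 573 in replicate 2, at 253 bp. HmgZ encodes a small chromatin protein with an HMG box. Its site had a signal of 1189, with 504 in replicate 1 and 683 in replicate 2, at 556 bp. At msi, the RNA-binding protein musashi of neural and germline stem cells, it was 1061, with 538 in replicate 1 and 523 in replicate 2, at 208 bp.

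Others encode enzymes, membrane proteins and proteins of the secretory pathway. Gapdh2, a glycolytic enzyme, had a signal of 1118, with 722 in replicate 1 and 397 in replicate 2, at 165 bp. Rtnl1 had 1123 at its strongest site, with 501 in replicate 1 and 629 in replicate 2, at 271 bp. Fkbp14, a peptidyl-prolyl isomerase, had 1388, with 743 in replicate 1 and 668 in replicate 2, at 126 bp. MFS10 belongs to the major facilitator family of transporters. Its site had 1116, with 522 in replicate 1 and 598 in replicate 2, at 158 bp. The gene px, known for its effect on wing veins, had 1733, with 893 in replicate 1 and 846 in replicate 2, at 204 bp.

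The other 7 of the 20 were at CG1635, Tina-1, osp, CG1888, CG13921, MFS18 and CG31886, with signals from 972 to 1208. Of the 20, 16 lay 101 to 300 bp upstream, and all 20 overlapped a thresholded peak in both replicates. Replicate 1 was higher at 13 of them, and none ranked below 77 among the candidates of replicate 1 or below 114 among those of replicate 2. The summit was intergenic at 9, intronic at 9 and in a 5′ UTR at 2.

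Most members were found in both replicates. Overlap by at least 1 bp with a peak of each replicate's own thresholded list was seen for 631 members (68.6%, Wilson 95% interval 65.5 to 71.5), against 63.2% over the whole set. The share was 7.04 percentage points (Newcombe 95% interval 3.50 to 10.5) above that of all other sites, at 61.6%. It was 11.5 points (5.48 to 17.6) above the 57.1% at or downstream of starts. From the 67.5% at divergent promoters it differed by 1.06 points (-3.64 to 5.84), an interval that includes 0. Only replicate 1 listed 105 members, only replicate 2 listed 113, and neither listed 71. Of the 2926 other sites these counts were 337, 458 and 330. The share on neither list was 7.72% of members, 6.27% of divergent sites and 11.3% of all other sites.

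The replicates split the upstream and divergent sites differently. The replicate 1 list held 80.0% of upstream sites and 75.1% of divergent sites, a difference of 4.92 points (0.70 to 9.23). The replicate 2 list held 80.9% of upstream sites and 86.2% of divergent sites, a difference of -5.30 points (-8.95 to -1.51). In each replicate's ranked list a candidate summit within 100 bp was found for 856 members (93.0%). For these the median log2 ratio of replicate 1 to replicate 2 was 0.09 (SD 0.53), against -0.20 at divergent promoters and 0.19 at or downstream of starts. The ratio lay within 1 on the log2 scale for 798 of the 856. With 1 library per replicate, a difference of this kind cannot be told apart from a difference between the libraries.

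**Figure D2:**
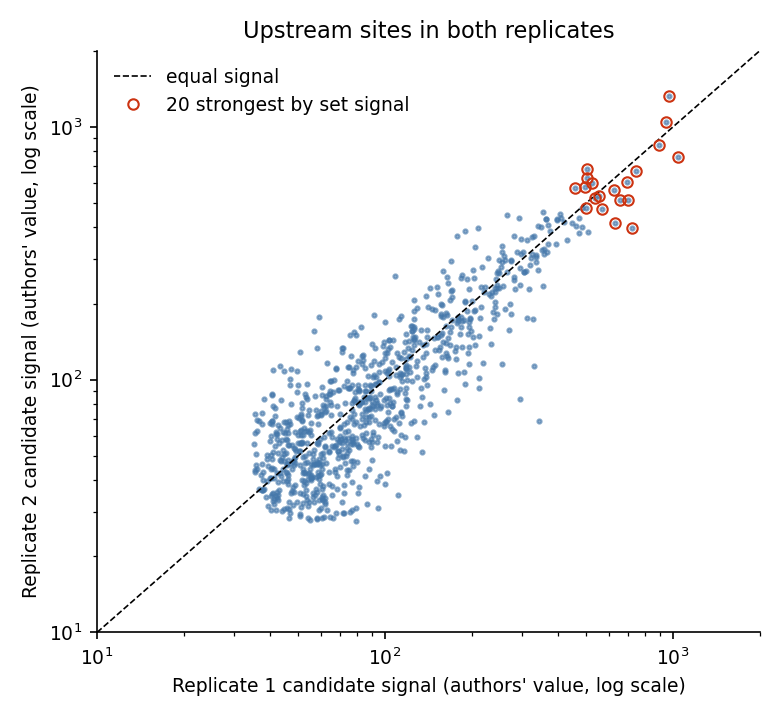
Signal of the 856 members with a candidate summit in both replicates, replicate 1 on the horizontal and replicate 2 on the vertical axis (authors' values, log scales), with 1 point per site. Replicate 1 was the higher at 493 sites and replicate 2 at 363, and the points run along the diagonal.

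Over the 856 sites the signals of the replicates had a Spearman rho of 0.806, against 0.754 over all other sites. By class it was 0.805 at divergent promoters, 0.819 at non-coding starts, 0.747 at or downstream of starts and 0.742 at distal sites. The sites share the 2 libraries and were chosen by the authors for their repeat between replicates, so this is a description. Members that split the replicates include single strong sites. CG5096 had a signal of 375 in the set and 217 in replicate 1, whose thresholded list alone held it. Regnase-1, which encodes an RNase of the Regnase family, had 258 in the set and 89.0 in replicate 2, whose thresholded list alone held it. For both sites the value of the other replicate is missing because the search for a ranked summit reached 100 bp and matched none. A peak with its summit farther away would not have been matched, so absence from that replicate is not shown. At Nacalpha, a subunit of the nascent polypeptide-associated complex, the values were 177 in the set, 118 in replicate 1 and 59.5 in replicate 2. Gga, a Golgi adaptor protein, had 110 in the set, 51.6 in replicate 1 and 56.7 in replicate 2, and was on neither thresholded list.

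Distance from the start went with signal and with base composition. The 142 sites within 100 bp had a median signal of 134 (118 to 147), the 269 at 101 to 200 bp 178 (160 to 205), the 256 at 201 to 400 bp 173 (158 to 193) and the 253 at 401 to 1000 bp 129 (116 to 147). The middle bands were thus the stronger, and the intervals of the nearest and farthest bands overlapped. The share on both replicates' lists was 59.9%, 71.4%, 74.2% and 64.8% in the same order of bands. Replicate 1 and replicate 2 medians were 72.4 and 62.1 within 100 bp, and 92.0 and 92.9 at 101 to 200 bp. Mean G+C content of the summit window was 40.03% ± 10.9 (SD over sites) within 100 bp, and 31.1% ± 9.91, 30.6% ± 8.30 and 32.4% ± 8.51 in the farther bands. The part of base composition in the signal was not tested.

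Member summits sat in a trough of G+C content. The 101-bp window at the summit had 32.7% ± 9.81 G+C (SD, n = 920 sites), against 40.5% ± 10.4 in the window 300 bp further upstream and 46.5% ± 9.42 in the window 300 bp towards the gene. It was lower at the summit than upstream in 643 sites (69.9%) and lower than on the gene side in 768 (83.5%). Within 100 bp of the start the summit mean, 40.03%, was above the 36.3% further upstream and below the 49.3% on the gene side. In the farther bands the summit means were 31.1%, 30.6% and 32.4%, against 38.9%, 42.2% and 42.8% further upstream. In the summit window, divergent promoters had 31.4%, sites at or downstream of starts 37.5%, non-coding starts 33.1% and distal sites 31.9%. All other sites together had 32.5%, so low G+C content at the summit was not particular to the members. Stronger members had the lower G+C content. In 4 groups of 230 sites by falling signal, it was 29.4%, 30.8%, 33.6% and 37.1%. Over the 920 sites Spearman's rho was -0.29 between G+C content and signal and -0.03 between distance and signal, given as descriptions because the sites share the libraries.

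**Figure D3:**
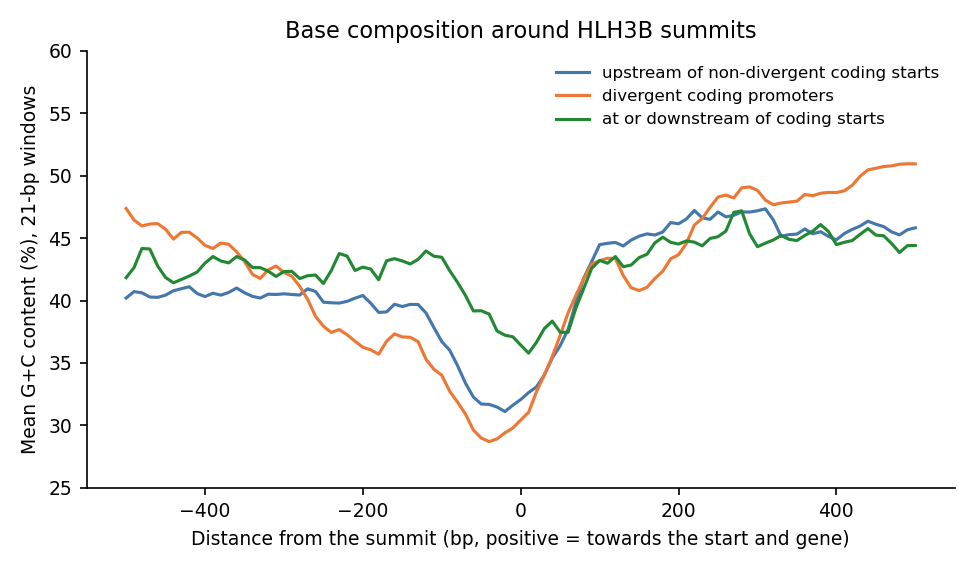
Mean G+C content (%) in 21-bp windows against the distance from the summit (bp, positive is towards the start and gene) for upstream sites, divergent promoters and sites at or downstream of starts. For upstream sites the level falls at the summit and is higher on the gene side than on the far side.

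The words that were commoner at summits were mostly made of A and T. Each hexamer, read on both strands, was compared between the summit window and the window 300 bp further upstream of the same site by an exact two-sided sign test with Benjamini-Hochberg adjustment over all hexamers. At an adjusted p under 0.05, 141 (6.78%) were higher at the summit and 190 (9.13%) lower. Of the 36 hexamers without G or C, 34 were higher, and of the 192 with 1 such letter 83 were. Of the 36 made only of G and C, 13 were lower. AAAATA stood in 41% of summit windows and 20.1% of upstream windows (log2 ratio 1.03, exact sign test, adjusted p = 7.50e-18), TTAAAA in 37.8% and 19.7%. In the other classes AAAATA stood in 44.7% of divergent and 36.0% of distal summit windows, and in 30.2% at or downstream of starts. The same test against the window on the gene side called 906, of which 294 of the 331 above went the same way. The count depends on the list of sites: it was 59 without replicate 2 (members taken from the thresholded list of replicate 1 alone) and 422 without replicate 1 (from that of replicate 2 alone).

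Among hexamers with more G and C letters, a few were also higher. AAGCTA stood in 9.02% of summit windows and 3.91% of upstream windows (log2 ratio 1.21, exact sign test, adjusted p = 0.000518). CGATAG stood in 5.22% and 2.07% (adjusted p = 0.0058, exact sign test), and in 7.40% of divergent and 1.46% of distal windows. AACCCT stood in 4.46% and 1.74% (adjusted p = 0.0107, exact sign test), against 2.41% at divergent promoters. Lower words were led by AAAGAG, in 5.11% of summit windows and 12.6% of upstream windows (adjusted p = 2.59e-06, exact sign test), and CAGGCG, in 0.435% and 4.13% (adjusted p = 5.88e-06, exact sign test).

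Known motifs were then searched by their letters on both strands in the same windows, with the exact two-sided sign test adjusted over 19 motifs. E-boxes were searched as CANNTG and, within that, as CAGATG and CAGCTG and CACGTG and CATATG. Words for GATA factors were AGATAA or AGATAG and TGATAA or TGATAG. Core promoter words were TATAAA, the initiator TCAGT, the DRE TATCGATA, CGATA (known for BEAF-32, and contained in the DRE), motif 1 GGTCACAC, motif 6 GTATATTT or GTATTTTT, and motif 7 CAGCNCTA or CAGCNCTG or CATCNCTA or CATCNCTG. The others were GAGAG for GAGA factor, CAGGTA for Zelda, GCCAT for Pho, TAATTA for homeodomains, TGTTTA for forkhead proteins and TTTATG for Caudal. Of the 19 motifs, 4 (21.1%) were higher at the summit and 2 (10.5%) lower. A match is a run of letters and not evidence of a bound site.

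Core promoter words were the ones that were higher. TATAAA stood in 22.6% of summit windows and 13.2% of upstream windows (log2 ratio 0.78, exact sign test, adjusted p = 1.31e-06). From base composition alone 27.8% and 16% would hold it, so the windows had 0.814 and 0.824 times that level. Motif 6 stood in 5.22% and 1.96% (log2 ratio 1.42, exact sign test, adjusted p = 0.00108), and motif 7 in 5.33% and 2.72% (0.97, exact sign test, adjusted p = 0.0224). CGATA stood in 15.9% and 11.4% (0.48, exact sign test, adjusted p = 0.0224). Against base composition, motif 7 was 2.37 times the level at the summit and 0.905 times upstream, and motif 6 1.44 and 0.840 times. CGATA was at 1.03 times the level at the summit and 0.735 times upstream, so the summit was near that level and the control window below it. These base-composition levels are descriptions chosen after the summits were known to be AT-rich.

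The calls for motif 6, motif 7 and CGATA were not held under every alternative. Among sites above the median signal of the set, the log2 ratio was 1.06 for motif 6 (exact sign test, adjusted p = 0.159), 0.84 for motif 7 (adjusted p = 0.293) and 0.24 for CGATA (adjusted p = 0.569). Without replicate 2, motif 6 was at 0.67 (exact sign test, adjusted p = 0.252) and CGATA at 0.41 (adjusted p = 0.121). CGATA was at 0.35 without replicate 1 (exact sign test, adjusted p = 0.124). With windows of 25 bp to each side, the log2 ratio was 1 for motif 6 (exact sign test, adjusted p = 0.235), 1 for motif 7 (adjusted p = 0.207) and 0.42 for CGATA (adjusted p = 0.235), so the ratios of motif 7 and CGATA were about as large as with the wider window. TATAAA kept its call in every alternative run, the weakest being without replicate 2 (0.42, exact sign test, adjusted p = 0.0494).

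E-boxes were not commoner at the summit. Any E-box stood in 33.7% of summit windows and 42.4% of upstream windows (log2 ratio -0.33, exact sign test, adjusted p = 0.00108). This call was lost among sites above the median signal (-0.32, exact sign test, adjusted p = 0.0516) and without replicate 2 (-0.13, adjusted p = 0.313). Both windows had more E-boxes than base composition gives, 1.51 and 1.70 times. CAGATG stood in 28 summit windows (3.04%) and 30 upstream windows (3.26%, exact sign test, adjusted p = 0.896), and CAGCTG in 3.70% and 5.43% (log2 ratio -0.56, exact sign test, adjusted p = 0.230). CAGCTG passed without replicate 1 (-0.86, exact sign test, adjusted p = 0.0489) and was at -0.0348 without replicate 2 (adjusted p = 1). GAGAG was lower, in 9.35% and 18.7% (log2 ratio -1, exact sign test, adjusted p = 2.00e-07), and was at -0.27 without replicate 2 (adjusted p = 0.252). Against base composition, GAGAG was at 0.922 times the level at the summit and 1.22 times upstream, so the control window was itself above that level. GATA words stood in 23.2% and 19.0% (0.28, exact sign test, adjusted p = 0.0882), which passed with the gene-side window (0.97, adjusted p = 5.06e-10) and with a 2000-bp limit (0.40, adjusted p = 0.00458). The gene-side window had 46.5% G+C, against 32.7% at the summit. Against base composition, GATA words were at 0.729 times the level at the summit and 0.746 times upstream, below it in both windows.

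Motifs also differed between classes of site. TATAAA stood in 22.6% of upstream and 28.1% of divergent summit windows (difference -5.53 points, Newcombe 95% interval -10.01 to -1.12), and in 16% of those at or downstream of starts (difference 6.63 points, 1.63 to 11.1). In distal windows it stood in 25.9% (-3.30 points, -6.62 to 0.138). Motif 7 stood in 5.33% of upstream and 9.32% of divergent windows (-4.0 points, -6.84 to -1.38), and in 2.19% of distal windows (3.14 points, 1.64 to 4.88). At or downstream of starts it stood in 4.73% (0.592 points, -2.50 to 3.03). Motif 6 stood in 5.22% of upstream and 4.66% of divergent windows (0.555 points, -1.77 to 2.70), and in 4.04% of distal windows (1.18 points, -0.440 to 3.01). At or downstream of starts motif 6 stood in 4.44% (0.780 points, -2.25 to 3.16), and each of its intervals includes 0. Any E-box stood in 33.7% of upstream and 28.0% of divergent windows (5.72 points, 1.01 to 10.3). Its share was 36.4% at or downstream of starts (-2.69 points, -8.74 to 3.15) and 34.3% in distal windows (-0.572 points, -4.30 to 3.22), intervals that include 0. CAGATG stood in 3.04% of upstream and 1.13% of divergent windows (1.92 points, 0.417 to 3.36). It stood in 2.96% at or downstream of starts (0.0849 points, -2.49 to 1.97) and in 3.20% of distal windows (-0.153 points, -1.46 to 1.35). No adjustment over these class comparisons was made.

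Members with the DRE, motif 1 or motif 7 had shorter median distances to the start than members without them, and members with motif 6 did not. At least 1 of DRE, motif 1, motif 6 and motif 7 stood at 111 members (12.1%), with a median distance of 148 bp, against 240 bp at the members without. The share was 29.6% within 100 bp and 10.04%, 9.38% and 7.11% in the farther bands. DRE was at 13 members, with a median distance of 39 bp, and motif 1 at 9, with 61 bp. Motif 7 was at 49 members, with a median distance of 101 bp against 239 bp without it, and motif 6 at 48, with 236.5 bp against 230 bp. TATAAA ran the other way, at 12% within 100 bp and 26%, 23.4% and 24.1% farther out. Working TATA boxes are known to lie close to the start, inside the nearest band. Signal was 135 (117 to 153) at members with 1 of the 4 elements and 159 (147 to 169) at those without. In the 240 bases before the start, motif 7 stood in 14.8% of member promoters and 11.0% of all 14150 coding promoters that could hold a member, and GAGAG in 44.2% and 31.9%. Any E-box stood in 64.4% and 68.8%, TATAAA in 34.2% and 36.3%, and DRE in 3.94% and 4.40%. Of the 19 motifs, 6 were higher and 13 lower in member promoters, and no difference was tested.

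**Figure D4:**
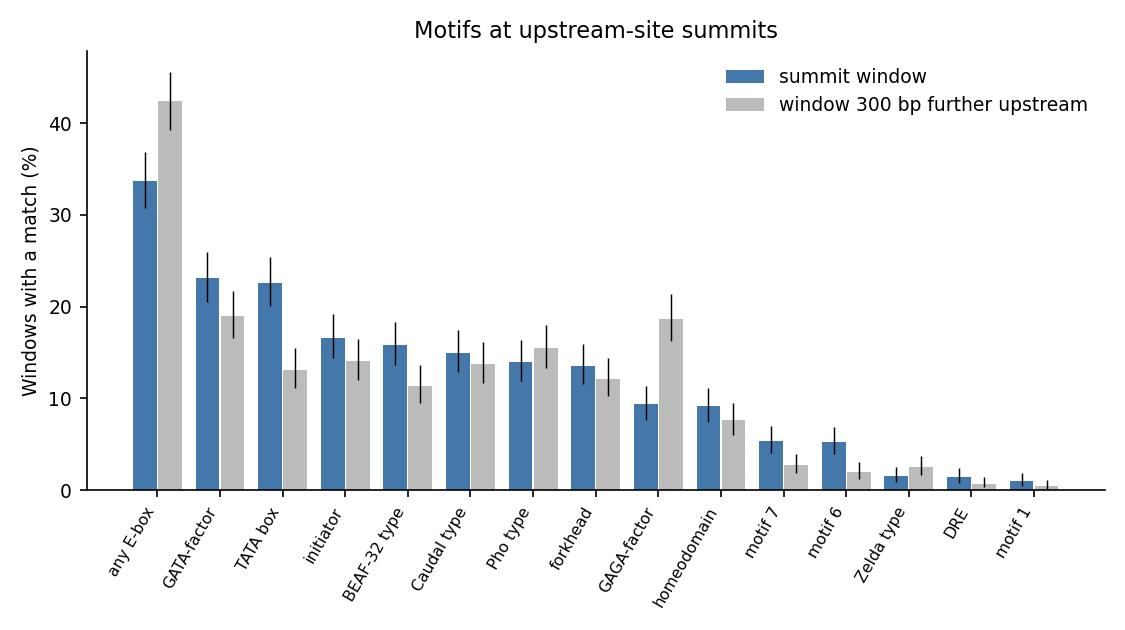
Share of the 920 members with a match to each of 15 motifs in the summit window and in the window 300 bp further upstream (percent, with Wilson 95% intervals). The TATA box, motif 6, motif 7 and the BEAF-32 type are higher at the summit, and any E-box and the GAGA-factor word are lower.

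Genes with an upstream site were then set against gene lists. Of 9654 coding genes with a start where a member could lie, 806 (8.35%) had one. The same count was made for 23 lists, of which 2, for glycolysis and the TCA cycle and for autophagy and the lysosome, were added after the strongest sites had been seen. A list's share is a description beside 8.35%, and no list was tested. Genes in any list numbered 73 of the 806, and 250 of the 806 are known only by a CG number.

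Ribosomal protein genes had a high share of upstream sites close to the start. Of the 40 cytosolic ribosomal protein genes that could hold one, 14 did (35%, 22.1 to 50.5), and 13 of the 14 sites lay within 100 bp, with a median of 31 bp. RpL23A had a signal of 350, with 180 in replicate 1 and 171 in replicate 2. RpL30 had 201, with 126 in replicate 1 and 68.7 in replicate 2. RpS4 had 200, with 113 in replicate 1 and 106 in replicate 2. The signals of the 14 sites ranged from 68.6 to 350, replicate 1 was higher at all 13 with a value in both, and 8 of the 14 were on both replicates' lists. With replicate 1 left out the share was 22.5%, and with replicate 2 left out 25%. Among sites above the median signal it was 15%, against 4.94% of all coding genes. Translation factors, which also serve the ribosome, had 4 of 30, all within 100 bp, led by eEF1gamma at 337 (218 in replicate 1, 117 in replicate 2).

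Of 20 glycolysis and TCA cycle genes 7 had a site (35%, 18.1 to 56.7), and none of the 7 sites lay within 100 bp. Apart from Gapdh2, the strongest were at Hex-A, a hexokinase (333, with 205 in replicate 1 and 138 in replicate 2), and Ldh, lactate dehydrogenase (316, with 176 in replicate 1 and 135 in replicate 2). Of 48 respiratory chain and ATP synthase genes 1 had a site (2.08%, 0.369 to 10.9), ND-B17 at 82.6, and 0 did without replicate 1. None was found at 26 proteasome subunit genes (Wilson interval up to 12.9%), 15 mitochondrial ribosomal protein genes (up to 20.4%), 12 mitochondrial import genes (up to 24.2%) or 10 tRNA synthetase genes (up to 27.8%). These intervals include the share of all coding genes. Of all 73 mitochondrial ribosomal protein genes, these 15 were the ones with a start where a member could lie. Autophagy and lysosome genes had 4 of 33 (12.1%, 4.82 to 27.3), led by Vha68-2, a subunit of the vacuolar proton pump (138). Their share was 3.03% without replicate 2 and 0% among sites above the median signal.

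Genes of signalling and development were spread over several lists. Notch pathway genes had 5 of 13 (38.5%, 17.7 to 64.5), and 23.1% without replicate 1. They included numb, an inhibitor of Notch (375, with 197 in replicate 1 and 176 in replicate 2), gro, the corepressor Groucho (498, with 246 in replicate 1 and 265 in replicate 2), and N, the receptor itself (68.5, with 36.6 in replicate 1 and 36.9 in replicate 2). Glial and septate junction genes had 8 of 34 (23.5%, 12.4 to 39.996). Among them was nrv1, a subunit of the sodium pump (220, with 59.0 in replicate 1 and 177 in replicate 2), where the replicates were far apart. The 8 also include mdy, a gene known for lipid synthesis that was in the list by its symbol, which raises the share. Muscle genes had 6 of 39 (15.4%, 7.25 to 29.7), with sls, the fly titin, at 336 (159 in replicate 1, 177 in replicate 2). The muscle share was 7.69% without replicate 2, where that of all coding genes was 8.72%, and 5.13% among sites above the median signal.

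Of 13 genes for partners of Tal1-type proteins 3 had a site (23.1%, 8.18 to 50.3). At da, the E protein Daughterless, the signal was 109, with 57.5 in replicate 1 and 46.5 in replicate 2. At ush, the Friend-of-GATA protein, it was 103, with 48.5 in replicate 1 and 49.5 in replicate 2. At Lim3, also counted among homeodomain genes, it was 77.7, with 42.5 in replicate 1 and 34.9 in replicate 2. Of the 3 sites, 1 was on both replicates' lists. Without replicate 1 the share was 7.69%, where that of all coding genes was 7.83%. Among sites above the median signal it was 0%, against 4.94% of all coding genes. Among bHLH genes 6 of 46 had a site, including trh at 181 and E(spl)m3-HLH at 180, with 50.7 in replicate 1 and 128 in replicate 2. HLH3B itself (FBgn0011276, X, 2680199 to 2681723) could hold a member and had none.

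Chemosensory and cuticle genes had lower shares than all coding genes. Of 196 chemosensory receptor and odorant-binding genes 1 had one (0.510%, 0.0901 to 2.83), Obp99b at 204 (137 in replicate 1, 67.8 in replicate 2). Cuticle, Twdl and Osiris genes had 3 of 140 (2.14%, 0.731 to 6.11). Without replicate 1 the chemosensory share was 1.02%. Synaptic genes had 3 of 70 (4.29%, 1.47 to 11.9), and 1.43% without replicate 2. Blood cell genes had 2 of 39 (5.13%, 1.42 to 16.9), and 2.56% without replicate 1. Hox and homeodomain genes, at 6 of 72 (8.33%), were at the level of all coding genes.

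**Figure D5:**
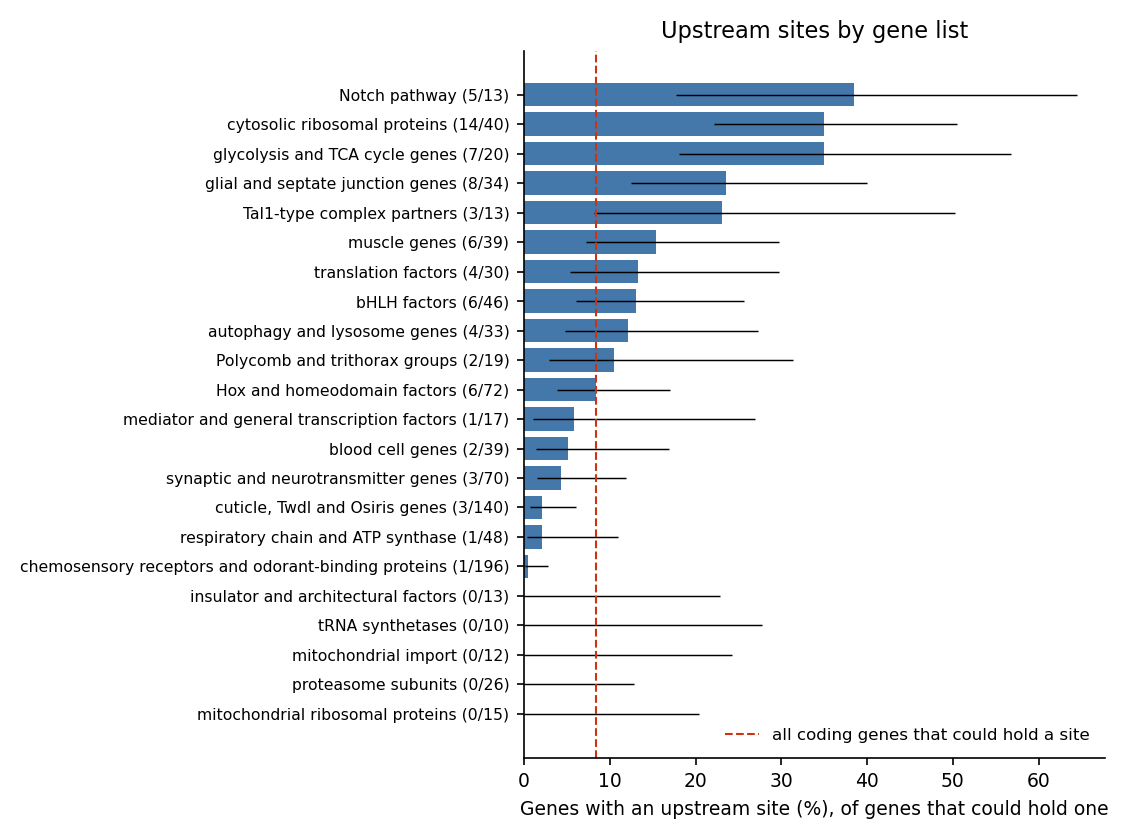
Percent of genes with an upstream site, of the genes that could hold one, for each list of at least 10 such genes, with Wilson 95% intervals; the dashed line is the 8.35% of all coding genes that could hold one. Cytosolic ribosomal protein, glycolysis and TCA cycle, and Notch pathway genes stand highest, and chemosensory genes are at 0.510%.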

How the data were processed

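Peak lists from 2 biological replicates and from the whole series were used, with coordinates on dm6 per the labels. The deposited signal of each peak is the authors' value on an unstated scale. The summit offset is also a deposited value. For the aligner and the peak caller, the labels name none. In the 2 series-level ranked lists, 16 columns of compared inputs carry no sample names and were not used. Members and lists were chosen with earlier results of these data known. Starts came from Ensembl release 115, without transposable elements, and sequence from the Release 6 genome FASTA. Sequences on arm 2R or in untranslated regions are not shown. Shares carry Wilson, differences Newcombe and medians order-statistic 95% intervals. The genes named are the strongest 20 members, up to 3 per list and those at the limits, plus HLH3B. The genes that split the replicates, N, nrv1, mdy, the motif examples and the genes with several sites were named after their values were seen. Expected motif shares come from each window's base composition. The hexamer sign test was tried on simulated data, with 1 hexamer planted in windows from random genome positions. Those windows were unpaired and drawn alike, unlike the summit and control windows, which differ in base composition. The simulation therefore does not test the counts reported here, and the fixed motifs were not simulated. Scripts ran in Python 3.11.15 with pandas 2.3.3, scipy 1.17.1, numpy 2.4.6 and, for figures, matplotlib 3.10.9. Whether the replicates came from separate embryo collections is not stated beyond the labels' word biological, and p-values measure the spread over sites of 1 experiment, some of which overlap.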

Additional observations from a re-analysis of the deposited data

Results flagged for a closer look

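The larger series-level set holds 1293 sites that meet the same rule of position, of which 394 overlap no peak of the conservative set. These 394 were outside the comparisons above and are given because signal appears there in a list the comparisons did not use. Their median signal was 73.5, and they lay at 366 genes, of which 316 carried no member. The files analysed here hold no control signal to set beside these values. The larger set has 5812 peaks on the 6 arms, against 3846 in the conservative set. How many of all its peaks lie outside the conservative set was not counted, so the 394 are not a result about upstream sites.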

How the results depend on the processing

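No paired analysis was possible because the series has 1 group. Counting the nearest start over coding genes only gave 949 members, and counting divergent starts of any biotype gave 879. With a 500-bp limit there were 748 members at a median distance of 188 bp, and 164 hexamers were called. With a 2000-bp limit there were 1091 members at a median of 290 bp, with a median signal of 152, and 537 hexamers. In the larger set the median signal was 117, the share on both lists 49.0%, the G+C content 35.3%, the hexamer count 128 and the share of genes with a site 11.5%. Among sites above the median signal there were 514 members, with a median signal of 247, 96.1% on both lists, 2 motifs called and 4.94% of genes. Requiring overlap of at least 50% of the peak gave 64.5% on both lists. Windows of 25 bp to each side gave 115 hexamers and 3 motifs, and 100 bp gave 35.0% G+C. The window on the gene side gave 906 hexamers and 12 motifs. Leaving out 1 replicate, which takes the list of the other, gave 840 to 958 members, medians of 211.5 to 247.5 bp and signals of 81.2 to 83.3, shares on both lists of 66.0% to 74.0%, G+C content of 32.0% to 35.2%, 59 to 422 hexamers, 2 to 6 motifs and 7.83% to 8.72% of genes. Signals of replicate lists are on their own scale. Log2 ratios that changed sign were those of CAGATG with 100 bp (0.0794), TCAGT on the gene side (-0.19), TAATTA above the median signal (-0.0324) and, leaving out 1 replicate, TAATTA (-0.0844 to 0.485) and TTTATG (-0.0454 to 0.261). None of these 4 motifs passed the test as reported. TAATTA (1.58, exact sign test, adjusted p = 1.08e-07), TTTATG (1, adjusted p = 1.88e-06), TGTTTA (0.70, adjusted p = 0.0011), CATATG (1.71, adjusted p = 0.000939), the DRE and GATA words passed with the window on the gene side, and TCAGT (0.34, exact sign test, adjusted p = 0.00177) and the DRE (1.58, adjusted p = 0.00797) with 100 bp. Apart from the values given here, the cause was not tested. Over motif results, 143 of 171 alternatives kept direction and call. Over the main results, 27 of 59 alternatives moved beyond the margin set for them. Over the gene lists, 12 of 92 fell outside the interval of the reported share. Depth is unknown, so no detection limit can be given.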
